A study of Danio rerio with 2 samples.

Results

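Tubulins are the proteins of microtubules, and the genes described here are the zebrafish tubulins together with the enzymes and binding proteins that act on tubulin. Members were all rows of the deposited testis and ovary table whose gene symbol, with case ignored, began with tuba, tubb, tubd, tube, tubg, ttll, agbl or stmn, or was tbca, tbcb, tbcc, tbcd or tbce. The rule found 54 of 24539 genes. The table held RNA sequencing values from 2 libraries, 1 of adult wild-type (WT) testis and 1 of adult wild-type ovary, each made from 3 pooled adults. Values are FPKM, which divide a gene's fragments by its length and by the size of the library, so genes can be set side by side within a library. Between the organs, ratios also depend on how the libraries are scaled, and 3 other scalings were tried. The testis column summed to 562394 FPKM and the ovary column to 572635 FPKM.

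A microtubule is built from dimers of alpha- and beta-tubulin, and gamma-tubulin with its complex proteins starts new ones. Delta- and epsilon-tubulin are known from the triplet microtubules of centrioles. Tubulin ligase-like enzymes add chains of glutamate or glycine to tubulin tails, cytosolic carboxypeptidases of the agbl family remove glutamates, stathmins bind free dimers, and the cofactors A to E assemble the dimer. In the gonads, microtubules form the meiotic spindles, the axoneme of the sperm tail and the large arrays of the oocyte.

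With 1 library per organ there was no spread between replicates, so no p-value is given and no difference below has a replicate check. A gene was classed as higher in testis or in ovary where its log2(FPKM + 1) values were 1 unit or more apart, which is 2-fold, and the larger value was 1 FPKM or more; the added 1 shrinks the ratios of low genes. Folds in the text are plain ratios of FPKM, and none is given against the lowest listed value of 0.01, which was read as standing for 0. The libraries carried the RNA that their labels name. All 8 matched genes of an oocyte list were higher in ovary (summed level 30.6 FPKM in testis and 8486 in ovary), while all 8 matched genes of a spermatocyte and spermatid list (2369 and 21.7 FPKM) and all 7 of a Sertoli and Leydig cell list (7018 and 46.5 FPKM) were higher in testis. In whole organs, fewer cells of a type and less RNA per cell cannot be told apart.

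Of the 54 genes, 50 reached 1 FPKM in at least 1 library. Of these, 28 stood higher in testis and 6 in ovary, and 16 lay within the 2-fold limits. Among all 19053 genes at this level, 45.1% stood higher in testis and 16.6% in ovary; among the tubulin-related genes these shares were 56.0% and 12.0%. The members had a median log2 ratio (testis over ovary) of 1.28 (quartiles 0.02 and 3.08), against 0.80 for all genes (quartiles -0.51 and 1.80). Relative to the median of all genes the members' median was 0.48. Over the 5501 genes at 10 FPKM or more in both libraries the median was -0.10, and over the 20 members among them it was 0.44. That filter leaves out genes high in only 1 library, so it cannot show how the lean of the table changes with level. In all, 8689 genes reached 10 FPKM in testis and 7256 in ovary. A trimmed mean of log ratios shifted the libraries by 0.07. With the all-gene median set to 0, 23 members stood higher in testis and 12 in ovary, so that testis held 65.7% of the classed members in place of 82.4%. For all genes that share went from 73.1% to 45.3%, with 4777 of 19053 classed to testis and 5779 to ovary under that setting. The 6 genes higher in ovary were tuba4l, tuba8l4, ttll4, TBCC and 1 copy each of STMN1 and STMN2, which the 3 scalings tried, all of which shift ratios towards ovary, cannot take out of their class. Of the 28 higher in testis, 23 kept their class under them, the others being AGBL5, TBCB, TBCD, TUBGCP2 and the other copy of STMN2.

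**Figure D1:**
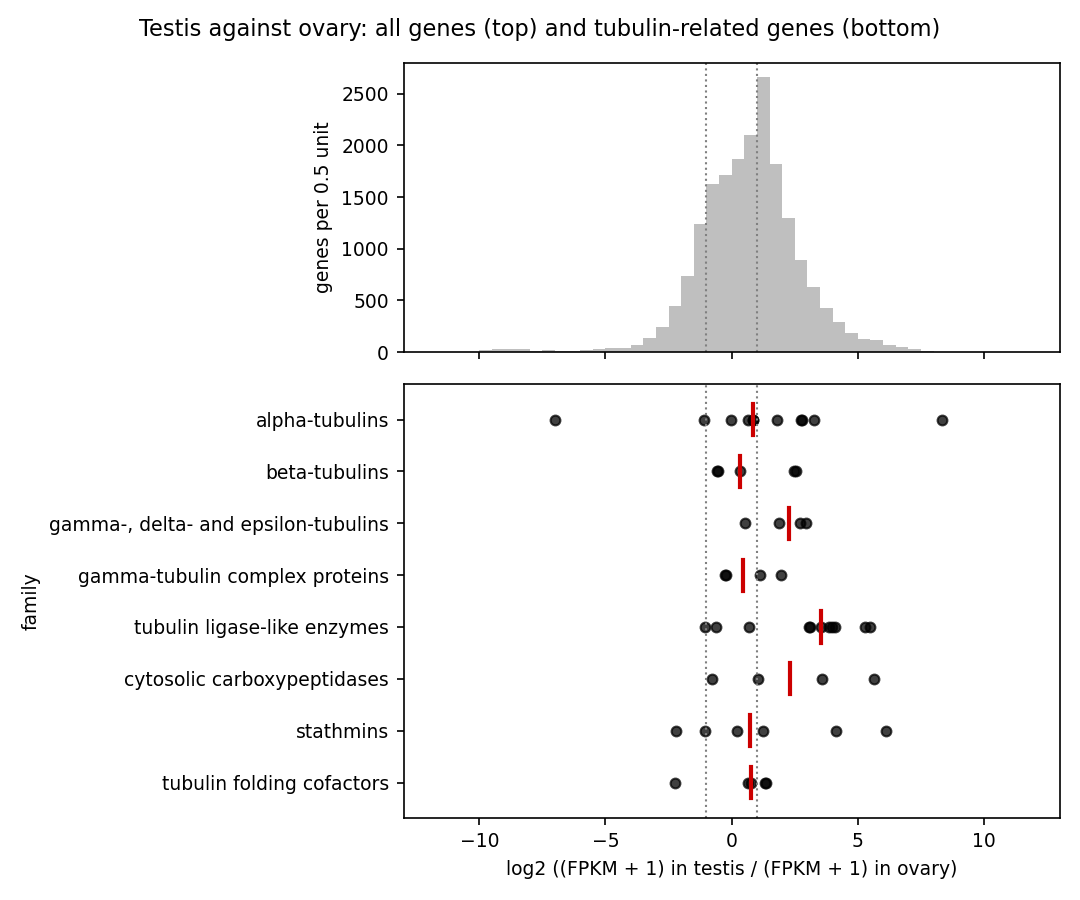
The top panel counts all 19053 genes that reached 1 FPKM by their log2 ratio of testis to ovary, with a pseudocount of 1, and the bottom panel places each tubulin-related gene that reached 1 FPKM (black point) in its family, with the family median as a red bar and the 2-fold limits as dotted lines. The alpha-tubulins span both ends of the axis, from tuba4l at -6.99 to tuba7l at 8.35, while the ligase-like enzymes gather on the testis side around a median of 3.53.

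The alpha-tubulins, which carry the sites of tyrosine removal and of the best known tubulin acetylation, summed to nearly the same level in both organs but from different genes. The 11 genes together held 2160 FPKM in testis and 2240 FPKM in ovary. In testis, tuba7l stood at 1440 FPKM, against 3.43 FPKM in ovary, a 420-fold difference. It was the gene of rank 19 among all 24539 in the testis library and of rank 9957 in the ovary library. In ovary, tuba4l stood at 1116 FPKM, against 7.79 FPKM in testis, a 143-fold difference in the other direction; its ranks were 64 in ovary and 9925 in testis. The gene tuba8l4 was abundant in both, at 465 FPKM in testis and 996 FPKM in ovary, 2.14-fold higher in ovary.

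These 3 genes made up most of the alpha-tubulin signal. In testis, tuba7l was 66.7% of the family's summed FPKM and tuba8l4 21.5%, with tuba4l at 0.361%. In ovary, tuba4l was 49.8% and tuba8l4 44.5%, with tuba7l at 0.153%. The family sums differed by 1.04-fold. The copies of a tubulin family are similar in sequence, and how the deposited values divide reads among them is not given in the sources used here, so the sums are the firmer values and the split between low copies is uncertain.

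The remaining alpha-tubulin genes were lower, and none of them was classed as higher in ovary under the settings tried. The gene tuba5 was measured at 67.5 FPKM in testis and 69.3 in ovary, the closest pair of values in the family. Adjacent genes differed in how far they leaned to testis. In the RefSeq gene order of another assembly (GRCz12tu), tuba1c, tuba1a and tuba1b follow each other with no protein-coding gene between them. Of these, tuba1c read 47.1 FPKM in testis and 3.99 in ovary (11.8-fold), TUBA1A read 37.4 and 4.58 (8.17-fold), and tuba1b read 50.6 and 27.4 (1.85-fold). Their testis levels lay between 37.4 and 50.6 FPKM, and the ovary level of tuba1b stood apart from the other two. A further adjacent pair, tuba8l3 and tuba8l5, was low, at 4.65 and 1.16 FPKM in testis and 0.62 and 0.19 in ovary. The gene tuba2 read 10.9 FPKM in testis and 0.76 in ovary (14.3-fold), and tuba8l2 read 27.3 and 17.2 (1.59-fold).

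**Figure D2:**
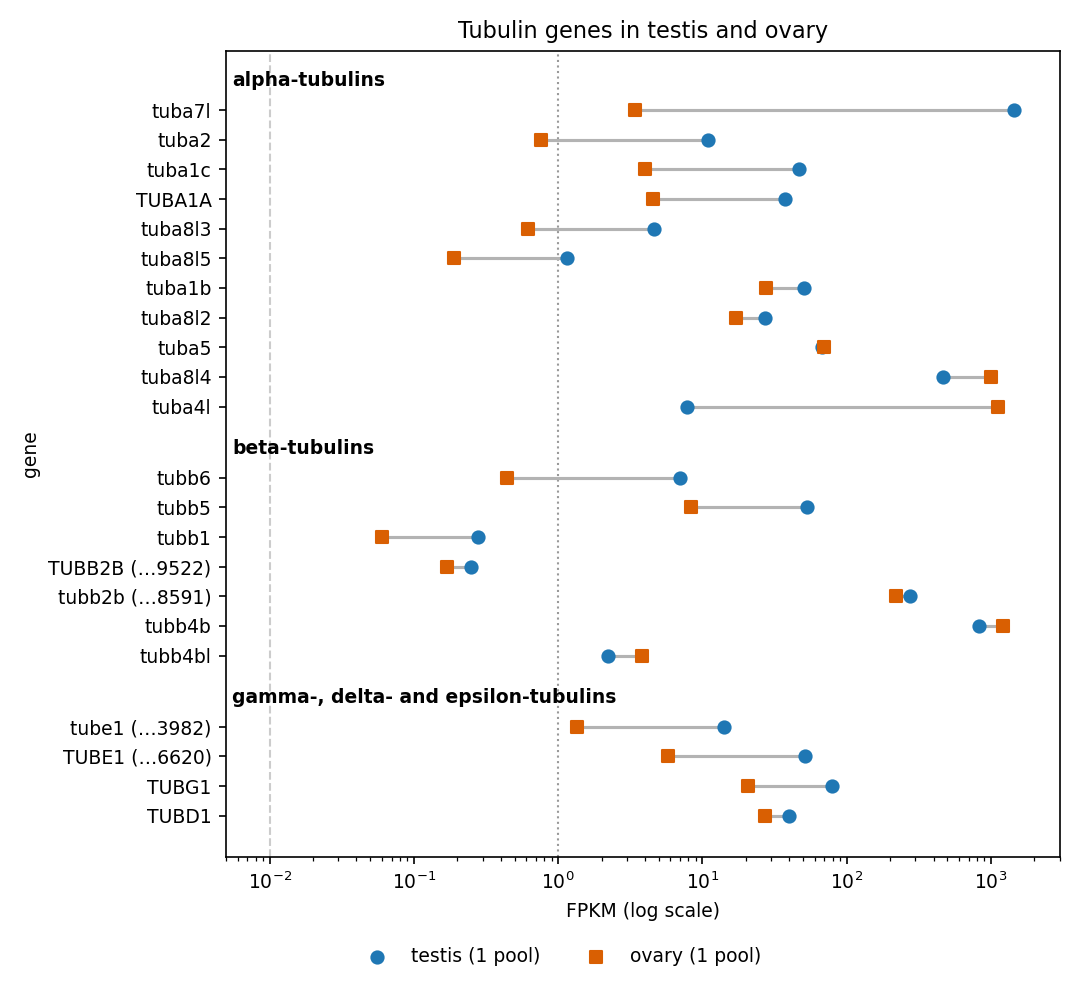
FPKM on a log axis for each alpha-, beta-, gamma-, delta- and epsilon-tubulin gene in the testis library (blue circle) and the ovary library (orange square), joined by a line; the dotted line marks 1 FPKM, the dashed line the lowest listed value of 0.01, and the last 4 digits of the identifier tell apart copies with the same symbol. The lines of tuba7l and tuba4l are the longest and point in opposite directions, whereas tubb4b and tubb2b are high in both organs.

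The beta-tubulins did not divide in this way: the same genes led in both organs. The 7 genes summed to 1172 FPKM in testis and 1441 in ovary. The gene tubb4b, whose human counterpart is a main beta-tubulin of cilia, was measured at 832 FPKM in testis and 1209 in ovary, 1.45-fold higher in ovary and under the 2-fold rule. It held rank 59 in the testis library and rank 58 in the ovary library. The copy of tubb2b with identifier ENSDARG00000098591 was measured at 277 FPKM in testis and 219 in ovary (1.26-fold). Together tubb4b and this tubb2b were 94.6% of the beta-tubulin signal in testis and 99.1% in ovary. The 2 beta-tubulin genes higher in testis were tubb5, at 53.4 FPKM and 8.34 in ovary (6.40-fold), and tubb6, at 7.04 and 0.44 (16.0-fold). The gene tubb4bl read 2.23 FPKM in testis and 3.81 in ovary. The other copy of TUBB2B (ENSDARG00000039522, 0.25 and 0.17 FPKM) and tubb1 (0.28 and 0.06 FPKM) stayed under 1 FPKM in both libraries. With the all-gene median set to 0, tubb4b and tubb4bl were classed as higher in ovary.

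The composition of each family can be put as an effective number of genes, the inverse of the summed squared shares. For alpha-tubulin it was 2.03 in testis and 2.24 in ovary, and for beta-tubulin 1.78 and 1.38. The summed alpha-tubulin level was 1.84 times the summed beta-tubulin level in testis and 1.55 times in ovary.

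**Figure D3:**
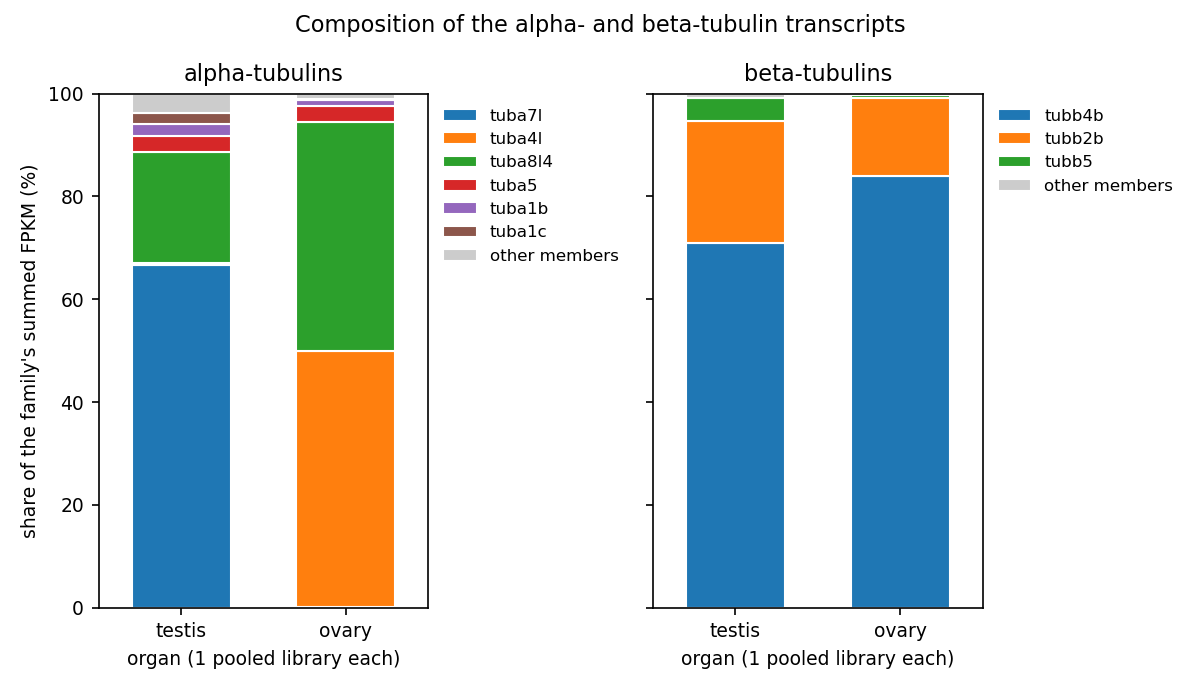
Stacked bars give each gene's share, in percent, of the summed FPKM of its family in the testis and the ovary library, with genes under 2% in both organs pooled as other members. The alpha-tubulin bars change their main gene from tuba7l (66.7%) in testis to tuba4l (49.8%) in ovary, while tubb4b is the main beta-tubulin in both (71.0% and 83.9%).

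Of 4 identifiers for gamma-, delta- and epsilon-tubulin, 3 were classed as higher in testis and none in ovary, where 45.1% of all genes were classed to testis; 2 of the 3 carry the same epsilon-tubulin symbol. TUBG1, the gamma-tubulin gene, was measured at 79.8 FPKM in testis and 20.9 in ovary (3.82-fold). A pair of identifiers carried the symbol of epsilon-tubulin: ENSDARG00000096620 was measured at 51.1 FPKM in testis and 5.80 in ovary (8.82-fold), and ENSDARG00000043982 at 14.2 and 1.36 (10.5-fold). Both copies were thus higher in testis and they summed to 65.4 and 7.16 FPKM; whether the identifiers are separate genes is not told by the name table. TUBD1, the delta-tubulin gene, was measured at 39.7 FPKM in testis and 27.0 in ovary (1.47-fold), under the 2-fold rule.

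The gamma-tubulin complex proteins, which hold gamma-tubulin in the ring that starts a microtubule, had 2 of 4 genes classed to testis and none to ovary. That is near the 45.1% of all genes classed to testis, and the family median of 0.45 lay under the all-gene 0.80. TUBGCP2 was measured at 52.9 FPKM in testis and 23.6 in ovary (2.25-fold), and TUBGCP4 at 21.1 and 4.64 (4.55-fold). TUBGCP3 had 24.6 FPKM in testis and 29.0 in ovary, and TUBGCP5 read 14.7 and 17.7, both under the 2-fold rule. TUBGCP2 and TUBGCP3, the core pair of the complex, were thus not classed alike, and with the all-gene median set to 0 TUBGCP2 lost its class while TUBGCP3 and TUBGCP5 were classed to ovary. The summed level was 113 FPKM in testis and 74.9 in ovary, a log2 ratio of 0.60 that turned to -0.20 with the all-gene median set to 0.

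Most ligase-like enzymes were far higher in testis. Of 11 genes, 8 (72.7%) were classed to testis and 1 (9.1%) to ovary, beside 45.1% and 16.6% of all genes. The family's median log2 ratio was 3.53, or 2.73 relative to the median of all genes. With the all-gene median set to 0, 8 were classed to testis and 2 to ovary, beside 4777 and 5779 of all 19053 genes. All 11 reached 10 FPKM in testis and 2 did in ovary. Among those that add glutamate in mammals, TTLL9 was measured at 59.2 FPKM in testis and 0.33 in ovary (180-fold). The gene ttll6, which lengthens glutamate chains and acts in cilia, stood at 85.8 and 4.56 FPKM (18.8-fold). TTLL1, the catalytic subunit of a glutamylase complex, stood at 45.1 and 1.73 FPKM (26.1-fold). Both ttll5 (24.1 and 2.04 FPKM, 11.8-fold) and TTLL11 (15.1 and 0.89 FPKM, 16.9-fold) followed them.

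The exceptions among the glutamylases were ttll4 and TTLL7. The gene ttll4, whose mouse product also modifies proteins other than tubulin, was measured at 68.0 FPKM in ovary and 32.4 in testis, 2.1-fold higher in ovary. It was 78.2% of the summed glutamylase level in ovary and 11.7% in testis. It passed the size rule narrowly, at a log2 ratio of -1.05, and reached -0.96 with a pseudocount of 5. TTLL7, a beta-tubulin glutamylase known from neurons, read 15.6 FPKM in testis and 9.37 in ovary (1.66-fold). The 7 glutamylase genes summed to 277 FPKM in testis and 86.9 in ovary, a 3.19-fold difference.

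The glycylases, which add glycine and are known from motile cilia and sperm tails, stood farther apart in their sums. TTLL3, which adds the first glycine, was measured at 83.8 FPKM in testis and 1.20 in ovary (69.8-fold). The gene ttll10, whose mouse product lengthens the glycine chain, stood at 20.7 and 0.87 FPKM (23.7-fold). Their sum was 104 FPKM in testis and 2.07 in ovary, a 50.4-fold difference against 3.19-fold for the glutamylases. The glutamylase sum in ovary was mostly ttll4 (78.2%). Gene by gene the groups overlapped, with the glutamylases TTLL9 at 180-fold and TTLL1 at 26.1-fold. Of the remaining ligase-like genes, TTLL2 was measured at 14.2 FPKM in testis and 0.05 in ovary, a ratio of 283 that rounding to 2 decimals leaves between 258 and 315. TTLL12, which has no known ligase activity on tubulin, read 12.5 and 19.9 FPKM (1.58-fold, under the rule).

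**Figure D4:**
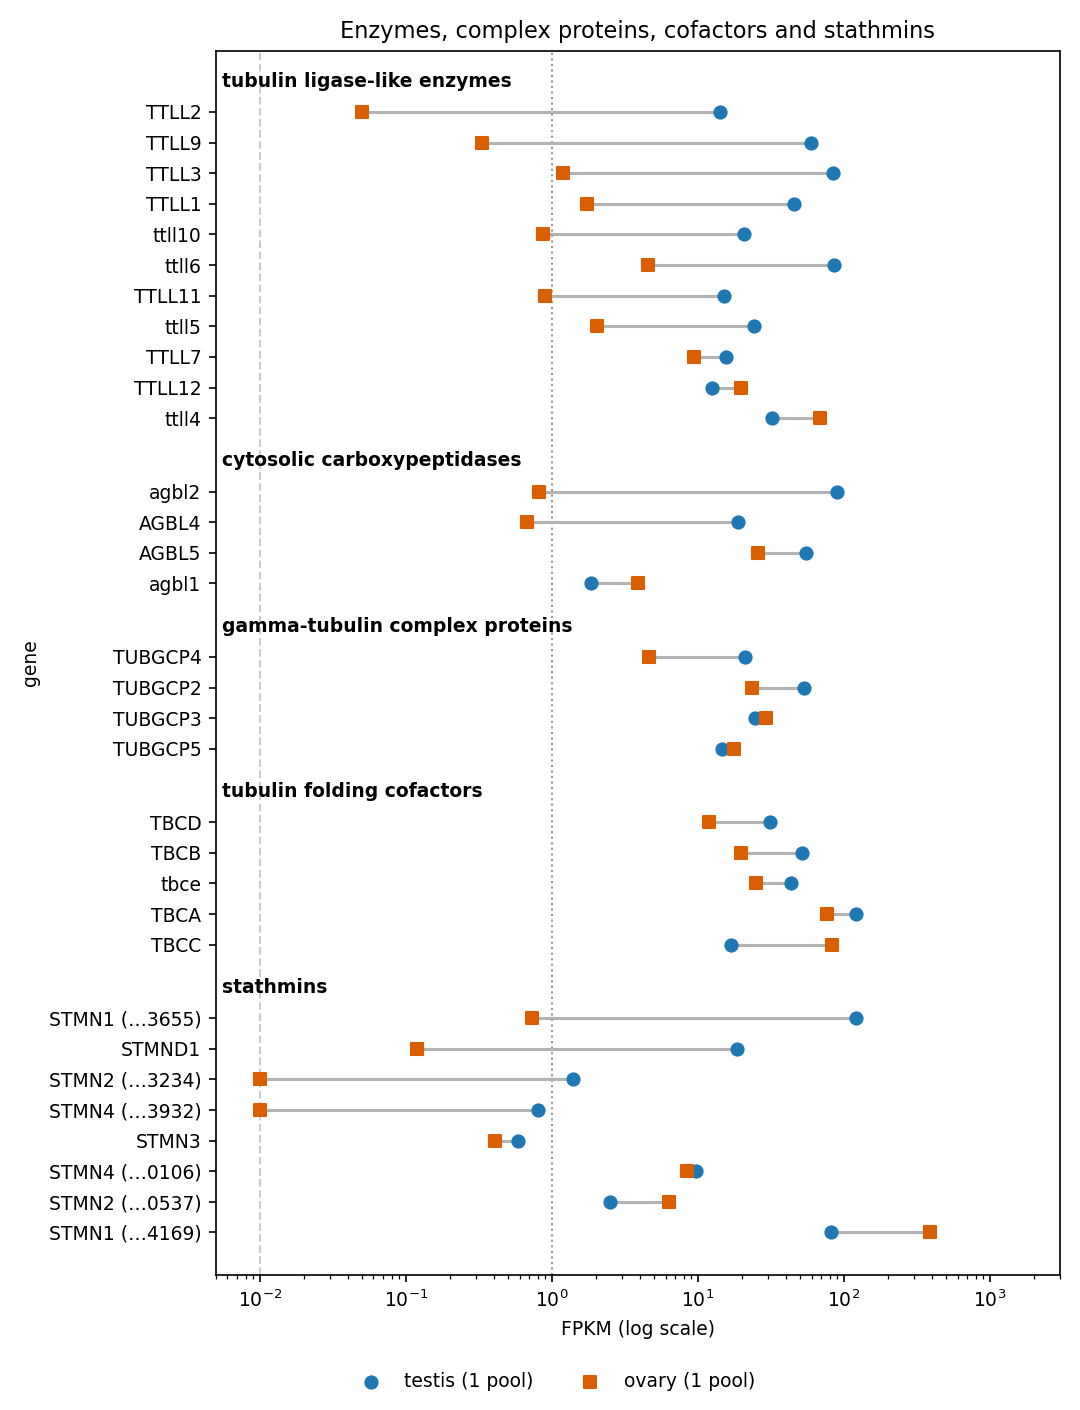
FPKM on a log axis for the ligase-like enzymes, carboxypeptidases, gamma-tubulin complex proteins, folding cofactors and stathmins in the testis library (blue circle) and the ovary library (orange square), joined by a line; the dotted line marks 1 FPKM, the dashed line the lowest listed value of 0.01, and the last 4 digits of the identifier tell apart copies with the same symbol. The 8 upper ligase-like genes lie at least 10-fold higher in testis, TTLL7, TTLL12 and ttll4 lie close together, and the copies of STMN1 point in opposite directions.

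The carboxypeptidases that take glutamates off included a pair under 1 FPKM in ovary, agbl2 and AGBL4. The gene agbl2 was measured at 89.7 FPKM in testis and 0.82 in ovary (109-fold), and AGBL4, which shortens glutamate chains, at 18.7 and 0.67 (28.0-fold). AGBL5, which removes the glutamate at the branch point, stood at 54.7 and 25.9 FPKM (2.12-fold). Its log2 ratio with a pseudocount of 1, 1.05, fell under the 2-fold rule in each of the 3 scalings tried. In ovary AGBL5 was thus the main member, at 82.8% of the family's 31.2 FPKM, against 33.2% of 165 FPKM in testis. The gene agbl1 was low, at 1.85 FPKM in testis and 3.87 in ovary. The summed glutamylases were 1.68 times the summed carboxypeptidases in testis and 2.78 times in ovary. The ovary ratio rests largely on ttll4, which was 78.2% of the summed glutamylase level there and 11.7% in testis. These are transcript levels and not enzyme activity.

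Of 6 stathmins that reached 1 FPKM, 3 (50.0%) were classed to testis and 2 (33.3%) to ovary, beside 45.1% and 16.6% of all genes. Identifiers of the same symbol differed. A pair of identifiers carried the symbol STMN1, the gene of the founding stathmin, which binds tubulin dimers and favours microtubule shortening. ENSDARG00000033655 was measured at 120 FPKM in testis and 0.73 in ovary (165-fold higher in testis). ENSDARG00000004169 was measured at 82.0 FPKM in testis and 385 in ovary (4.70-fold higher in ovary). Testis thus held both copies, and ovary nearly only the second. Their sums, 202 FPKM in testis and 386 in ovary, had a log2 ratio of -0.93, just under the 2-fold rule. The 3 scalings tried shift this ratio further towards ovary. A sum per symbol thus hides that the copies lean in opposite directions.

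The other stathmins were lower. STMND1 was measured at 18.6 FPKM in testis and 0.12 in ovary (155-fold). Of the copies of STMN2, a stathmin known from neurons, ENSDARG00000070537 read 2.49 FPKM in testis and 6.30 in ovary (2.53-fold), and ENSDARG00000033234 read 1.4 FPKM in testis and was listed at 0.01 in ovary. The copies of STMN4 read 9.70 and 8.35 FPKM (ENSDARG00000030106), and 0.80 in testis with the lowest listed value in ovary (ENSDARG00000043932). STMN3 read 0.59 FPKM in testis and 0.41 in ovary. Beside these values stand those of a neuron and nerve list, which summed to 59.7 FPKM in testis and 15.9 in ovary. Of 14 matched genes, 9 reached 1 FPKM, with 6 (66.7%) classed to testis and 0 to ovary, beside 45.1% and 16.6% of all genes. With the all-gene median set to 0, 3 were classed to testis and 1 to ovary, beside 4777 and 5779 of all 19053 genes. The list shares map2 and mapta with the list of microtubule-associated proteins below. Its highest genes in testis were map2 (27.8 FPKM in testis and 3.56 in ovary), ELAVL4 (9.12 and 0.28) and PRPH (5.86 and 0.16). The 3 within the 2-fold limits were cntn1a (3.34 and 4.39), SYT1 (2.69 and 3.17) and a copy of SNAP25 (2.30 and 2.31). ELAVL3 read 0.96 and 0.23, gap43 read 0.50 and 0.82, and no gene was at the lowest listed value. The part of nerve in the stathmin values was not tested.

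The folding cofactors, which complete the alpha-beta dimer after the chaperonin, were present at over 10 FPKM in both organs, and TBCC was the exception in direction. TBCC, which triggers release of the finished dimer, was measured at 82.9 FPKM in ovary and 17.0 in testis, 4.89-fold higher in ovary. TBCB, which handles alpha-tubulin, was measured at 51.7 FPKM in testis and 19.8 in ovary (2.62-fold), and TBCD, which handles beta-tubulin, at 31.0 and 11.9 (2.62-fold). TBCA read 121 and 76.8 FPKM (1.58-fold) and tbce read 43.3 and 24.8 (1.75-fold), both under the 2-fold rule. With the all-gene median set to 0 none of these 4 was classed as higher in testis.

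Genes of the same pathway that the symbol rule does not take in were read from lists. Of 14 matched genes for tubulin modification, 10 (71.4%) were classed to testis and 2 (14.3%) to ovary. Among all genes the shares were 45.1% and 16.6%. The median log2 ratio of the list was 2.02. With the all-gene median set to 0, 8 were classed to testis and 2 to ovary, beside 4777 and 5779 of all 19053 genes. The partners of TTLL1 in the mammalian glutamylase complex were high in testis: TPGS1 at 130 FPKM against 3.74 in ovary (34.9-fold), TPGS2 at 80.6 against 5.35 (15.1-fold) and CSTPP1 at 35.7 against 1.92 (18.6-fold). NICN1, a further subunit named here after its values were seen, read 4.35 and 2.90 FPKM. The enzymes of the tyrosine cycle of alpha-tubulin stood on both sides. VASH1, which removes the tyrosine, read 6.49 FPKM in testis and 0.07 in ovary (92.7-fold). Its relative VASH2, named here after its values were seen, was higher in both organs and less far apart, at 15.9 and 5.60 FPKM (2.84-fold). TTL, which puts the tyrosine back, read 16.3 FPKM in ovary and 6.62 in testis (2.46-fold). MATCAP1, another tyrosine-removing enzyme, read 5.56 FPKM in ovary and 2.01 in testis (2.77-fold). SIRT2, a deacetylase of alpha-tubulin, read 30.6 FPKM in testis and 2.62 in ovary (11.7-fold), and MATCAP2 read 43.7 and 0.51 (85.8-fold).

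Of 9 microtubule severing genes, 3 (33.3%) were classed to each organ, beside 45.1% to testis and 16.6% to ovary among all genes. Their median was -0.40, or -1.19 relative to that of all genes. With the all-gene median set to 0 the counts were 3 in testis and 5 in ovary, beside 4777 and 5779 of all 19053 genes. KATNA1, the gene of the catalytic subunit of the severing enzyme katanin, was measured at 28.3 FPKM in ovary and 4.97 in testis (5.69-fold). Its relatives KATNAL2 (41.6 and 1.62 FPKM, 25.7-fold) and KATNAL1 (44.1 and 11.3 FPKM, 3.90-fold) were higher in testis. KATNBL1 (80.4 in ovary and 32.1 in testis, 2.51-fold) and FIGN (2.85 and 0.39, 7.31-fold) were higher in ovary.

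The chaperonin and prefoldin list, which covers the folding of new tubulin before the cofactors act, was mostly even. Of 17 identifiers, 2 of which carry the symbol CCT2, 14 (82.4%) lay within the 2-fold limits, beside 38.3% of all genes. A further 2 (11.8%) were classed to testis and 1 (5.9%) to ovary, beside 45.1% and 16.6% of all genes. The median of the list was 0.59, or -0.20 relative to that of all genes. All 17 stood at 10 FPKM or more in both libraries. Over the 5501 genes at that level the median was -0.10. Their share within the limits was not computed, and the 38.3% also covers genes high in only 1 library. With the all-gene median set to 0, 1 of the 17 was classed to testis and 3 to ovary, beside 4777 and 5779 of all 19053 genes. CCT8 was measured at 202 FPKM in testis and 125 in ovary, CCT7 at 196 and 112, and CCT3 at 180 and 127. The exception towards ovary was the prefoldin gene VBP1, at 46.3 and 20.8 FPKM (2.22-fold). ARL2, the small GTPase that works with the cofactors, was higher in testis (126 and 25.5 FPKM, 4.95-fold), as was ARL2BP (99.4 and 32.1 FPKM, 3.10-fold); both are named after their values were seen.

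For gamma-tubulin recruitment and augmin, the complex that branches spindle microtubules, the median of 16 genes was -0.50. Relative to that of all genes it was -1.30. Of the 16, 1 (6.25%) was classed to testis and 2 (12.5%) to ovary, beside 45.1% and 16.6% of all genes. The ovary share was thus not above that of all genes as deposited, but it depended on the scaling. With the trimmed mean, 4 of the 16 were classed to ovary, beside 3356 of all 19053 genes. The augmin gene haus6 was measured at 194 FPKM in ovary and 18.6 in testis (10.4-fold), and the centrosome gene ninl at 76.3 and 12.7 (6.0-fold). HAUS1, another augmin gene, read 60.9 FPKM in ovary and 40.1 in testis. The spindle assembly gene TPX2 read 377 FPKM in ovary and 190 in testis (1.98-fold), just under the rule. The gene higher in testis was pcnt (17.0 and 5.06 FPKM, chosen after its values were seen). With the all-gene median set to 0, 10 of the 16 were classed to ovary and 0 to testis. Of all 19053 genes, 5779 were classed to ovary and 4777 to testis under that setting.

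Of 27 matched genes for microtubule-associated proteins, 23 reached 1 FPKM, and their median log2 ratio was 1.66. Of these, 16 (69.6%) were classed to testis and 2 (8.7%) to ovary, beside 45.1% and 16.6% of all genes. By the mean of the 2 libraries, the plus-end binding genes MAPRE1 (561 and 165 FPKM, 3.41-fold) and mapre1b (202 and 56.4 FPKM, 3.58-fold) were the most abundant. CKAP5 (112 and 83.0 FPKM, under the rule) followed by that mean. MAPRE2 was measured at 32.1 FPKM in testis and 1.04 in ovary (30.9-fold) and map9 at 51.8 and 4.40 (11.8-fold). Further genes at least 8-fold higher in testis were map1ab (6.81 and 0.04 FPKM), MAP1A (8.46 and 0.08), 1 copy each of MAPRE3 (14.6 and 0.38) and MAP7D1 (12.3 and 0.48), maptb (2.58 and 0.08) and map4l (2.91 and 0.24). Below the minimum, mapta read 0.83 and 0.09 FPKM. Those higher in ovary were map7b (43.0 and 9.09 FPKM, 4.73-fold) and map7a (6.13 and 0.09 FPKM, 68.1-fold). Setting the all-gene median to 0 left 9 classed to testis and 4 to ovary, beside 4777 and 5779 of all 19053 genes.

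The motor families that walk on microtubules give a scale for these counts; the differences between families were not tested. Of 42 dynein genes, 35 were classed to testis and 1 to ovary, and the median log2 ratio was 3.61. Of 35 kinesin genes that reached 1 FPKM, 16 (45.7%) were classed to testis and 3 (8.6%) to ovary, and the median was 0.92. Among all genes the shares were 45.1% and 16.6% and the median was 0.80, so the kinesins stood near the all-gene testis share and median. Once the all-gene median was set to 0, the counts were 32 and 3 for dyneins and 7 and 9 for kinesins. Those for all 19053 genes were 4777 and 5779. The ligase-like enzymes, at 3.53, lay near the dyneins. The tubulins themselves, at 0.86 for alpha and 0.33 for beta, lay near the kinesins and the all-gene median, or under them.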

How the data were processed

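The authors deposited 1 table of FPKM values, with a testis and an ovary column and 24539 Ensembl identifiers as rows, per the file headers. The submitters' processing notes name GRCz10 as the build and HISAT, Bowtie2 and RSEM as tools; not given in the sources used here are their versions and roles, the annotation and the use of strand, so overlapping or antisense genes could share reads. Values have 2 decimals; 430 genes in testis and 3540 in ovary stand at the lowest value, 0.01. A table of names gave symbols to 21881 identifiers, so an unnamed tubulin gene would be missed. Symbols in capitals are printed as given there. From these FPKM values log2 ratios with a pseudocount of 1, size classes, family sums and shares were computed (Python 3.11.15, numpy 2.4.6, pandas 2.3.3). List symbols ending in a or b that matched no identifier were matched without that letter. The depth is unknown: a reading of relative depth from steps between low values did not return a known ratio in simulated data and is not used. No coordinates are printed, since the RefSeq gene table is of another assembly (GRCz12tu); it gave only gene order, for 47 of 49 member symbols. The members and lists were chosen with earlier results of these data known. Every member is accounted for. Of each pathway list, the 3 with the highest mean, those higher in ovary and those at least 8-fold apart are named. A gene that this rule selects is not reported here.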

Additional observations from a re-analysis of the deposited data

How the results depend on the processing

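The count of members higher in testis (28) stayed between 20 and 29 under 10 alternatives: a pseudocount of 0.1 or of 5, a minimum of 5 FPKM or none, a 4-fold rule, a trimmed mean of log ratios over genes with at least 1 FPKM in each library (a log2 shift of 0.07), the all-gene median set to 0 (a shift of 0.80), totals taken without the top 100 genes of each library (a shift of 0.16), symbols carried by 1 identifier, and no tubgcp genes. The count higher in ovary (6) went to 3 with the 4-fold rule and to 12 with the all-gene median set to 0, and lay between 4 and 7 otherwise. That median setting also moved the members' median log2 ratio from 1.28 to 0.48, the summed alpha-tubulin log2 ratio from -0.05 to -0.85 and the summed beta-tubulin ratio from -0.30 to -1.10, by its own construction. Of single members, 20 of 28 and 3 of 6 kept their class under all 8 settings run on them. None of these settings could give a member the opposite class, since the largest shift, 0.80, is under the 1 unit that sets a class. No paired analysis was possible because each organ has 1 library. Without replicates or counts, neither biological spread nor counting error can be given, and values under about 1 FPKM rest on few fragments.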

Other observations

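Markers of further cell types stood mostly higher in the testis library, and their part in the tubulin values was not tested. All 8 matched endothelial and immune genes were classed to testis (summed level 217 FPKM in testis and 12.4 in ovary), as were all 4 erythrocyte genes (216 and 14.6 FPKM) and 9 of 10 identifiers of the skeletal muscle list (176 and 14.8 FPKM). Where the RNA of the skeletal muscle genes came from was not tested. Of 6 follicle cell genes, 5 reached 1 FPKM, 3 classed to testis and 2 to ovary (145 and 9.64 FPKM, of which inha gave 137 and 3.06). The others classed to testis were FSHR (4.72 and 0.07) and lhcgr (1.81 and 0.13). Those classed to ovary were CYP19A1 (0.01 and 2.04) and a copy of FOXL2 (1.23 and 3.61). Among all genes, 45.1% were classed to testis and 16.6% to ovary.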
